A study of Homo sapiens with 2 samples.

Results

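The 10 genes described here are KRT7, KRT8, KRT10, KRT15, KRT17, KRT18, KRT19, KRT23, KRT80 and VIM, that is 9 keratins and vimentin. They were taken from a list of names, which was chosen with earlier results of these data known. All 10 were found by name in both libraries, among 24994 gene names that the libraries share. RNA was sequenced from PLC cells, a human liver cancer line, carrying the empty vector (EV, labelled as wild type) and from PLC cells that over-express PRSS35, a secreted serine protease, with 1 library per condition. Both lines were made by lentiviral infection with the pCDH vector, either empty or with the human PRSS35 coding sequence, and by puromycin selection. The sources used here do not say whether a line is a pool or a clone. As each condition is a single library, no difference could be set against the spread between replicates, and p-values are left out.

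Keratins form the intermediate filaments of epithelial cells, in which a type I chain always pairs with a type II chain. Hepatocytes are known for a simple pair, KRT8 (type II) and KRT18 (type I), while bile duct cells and liver progenitors also carry KRT7 and KRT19. Vimentin is a type III filament protein that assembles without a partner of another type, is typical of mesenchymal cells and is often read beside keratins as a sign of a mesenchymal state.

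In bulk RNA, fewer cells that express a gene and less RNA per cell cannot be told apart. The unit throughout is FPKM, the number of fragments per length of transcript scaled to the size of the library, which allows levels of different genes to be set side by side. The interval after each FPKM is the one that Cufflinks reports. It reflects how fragments were counted and assigned in that library and says nothing of variation between cultures. The files give no read totals, so the depth behind each value is not known, and the interval is not a direct measure of it. The change is log2((PRSS35 FPKM + 1) / (EV FPKM + 1)), and its interval was propagated from the Cufflinks bounds. The PRSS35 transcript was at 0.643 FPKM (interval 0.445 to 0.841) in EV and at 1836 (interval 1759 to 1912) in PRSS35, which is the direction of the labels. Of 9 hepatocyte markers, 8 had a mean FPKM of at least 1. The 3 highest were SERPINA1, the circulating antitrypsin, at 2528 FPKM in EV and 4239 in PRSS35, the lipoprotein gene APOA1 at 576.2 and 493.6, and the iron carrier TF at 224.2 and 348.5. FGB, a fibrinogen chain, was at 0.598 and 0.540. ALB, which encodes albumin, was low for a hepatocyte marker, at 4.05 and 5.21.

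The study describes PRSS35 as a protease that cuts at adjacent lysines, so the codons for adjacent lysines were located in each member. Coding sequences were read from the GRCh37 genome, the same assembly as hg19, with the canonical transcripts of GENCODE. All 10 members hold at least 1 pair of adjacent lysine codons, 19 pairs in all. The share of other coding genes with such a pair was not counted, so this count does not mark the members out. KRT10, KRT7, KRT15, KRT19 and VIM have 1 pair each, KRT8, KRT17 and KRT18 have 2, KRT80 has 3 and KRT23 has 5. A single pair is printed here for 8 of the members, to show how far its surroundings are shared, in coding orientation with 12 bases on either side, the lysine codons in capitals. In genes with several pairs it is the one most like that of KRT10 (type I) or the first of KRT8 (type II).
KRT10: ctggcctatctgAAGAAGaaccacgaggag
KRT17: ctggcctacctgAAGAAGaaccacgaggag
KRT19: ctggcctacctgAAGAAGaaccatgaggag
VIM: attgcctttttgAAGAAActccacgaagag
KRT23: ctcattctcatgAAGAAGcaccatgagcag
KRT8: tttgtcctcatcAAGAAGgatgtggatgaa
KRT7: tttgtggtgctgAAGAAGgatgtggatgct
KRT80: tttgttcagctgAAGAAGgacctggatgca

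The pair of KRT10 (lysines 284 and 285) thus lies in a stretch that other type I keratins share. Of its 30 bases, KRT17 has 29 in common, KRT19 28, KRT15 27, KRT18 24 and KRT23 19. Vimentin, a filament protein of another type, has 22. In the type II members, KRT7 shares 23 and KRT80 22 of the 30 bases with KRT8. With KRT10, KRT8 and KRT7 share 15 each and KRT80 18, which is close to the 19 of KRT23. The type I KRT18 shares 18 with KRT8, so the split by type is not sharp. The lysine codons themselves are part of all these counts, and in genes with several pairs the most alike pair was taken. These shared bases are features of the genes and not measurements of cleavage. The stretch of KRT10 is in a coding exon at chr17:38976763-38976792 on the minus strand. On the same strand of chromosome 17 lie those of KRT17 (chr17:39778607-39778636), KRT19 (chr17:39681095-39681124) and KRT23 (chr17:39086192-39086221). That of VIM is on the plus strand at chr10:17275652-17275681. In KRT8, KRT7 and KRT80 the stretch is joined across an intron, between chr12:53294456-53294960 (minus strand), chr12:52631336-52632475 (plus strand) and chr12:52574381-52574704 (minus strand).

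Transcript levels of the members spanned a wide range. KRT8 and KRT18 ran from 2315 to 2781 FPKM. KRT10, VIM, KRT7 and KRT19 lay between 5.27 and 24.9, KRT80 between 1.32 and 1.55, and KRT15, KRT23 and KRT17 below 1 in both libraries. In EV, the neighbours VIM and KRT7, KRT7 and KRT19, KRT80 and KRT15, KRT15 and KRT23, and KRT23 and KRT17 had overlapping intervals. In PRSS35, the neighbours that overlapped were KRT8 and KRT18, VIM and KRT7, KRT80 and KRT15, and KRT15 and KRT23.

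**Figure D1:**
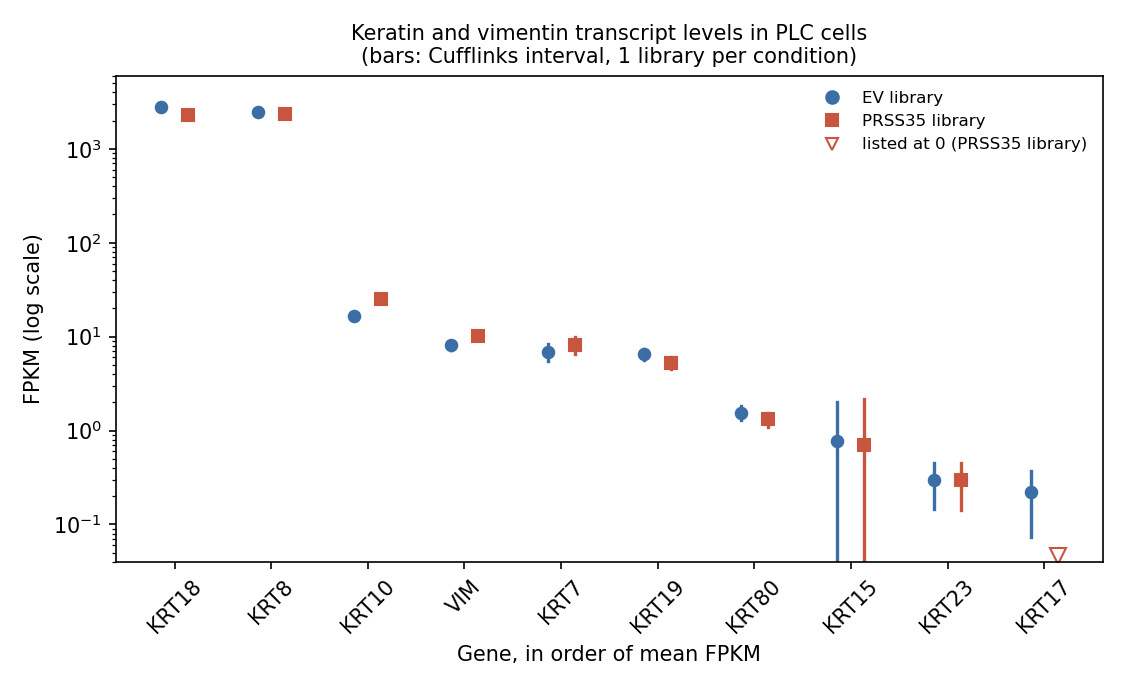
FPKM (log axis) of the 10 genes in the EV (circles) and PRSS35 (squares) libraries, with the Cufflinks interval as a bar, which is hidden where it is smaller than the marker. KRT18 and KRT8 sit between 2315 and 2781 FPKM, KRT10 at 16.5 and 24.9, and KRT17 is listed at 0 in the PRSS35 library (open triangle).

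Of the 7 members with a mean FPKM of at least 1, none differed by 2-fold or more between the libraries. Over 10136 genes with that mean, 1.9% were higher and 1.84% lower by 2-fold in PRSS35. The interval in PRSS35 lay above that in EV for 2 of the 7 members, KRT10 and VIM, where 24.7% of all expressed genes did so. It lay below for 1, KRT18, where 14.3% of all expressed genes did so. These counts are near what the whole table shows and do not mark the members out. The median log2 change of the 7 members was -0.07, and that of all expressed genes was 0.06.

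**Figure D2:**
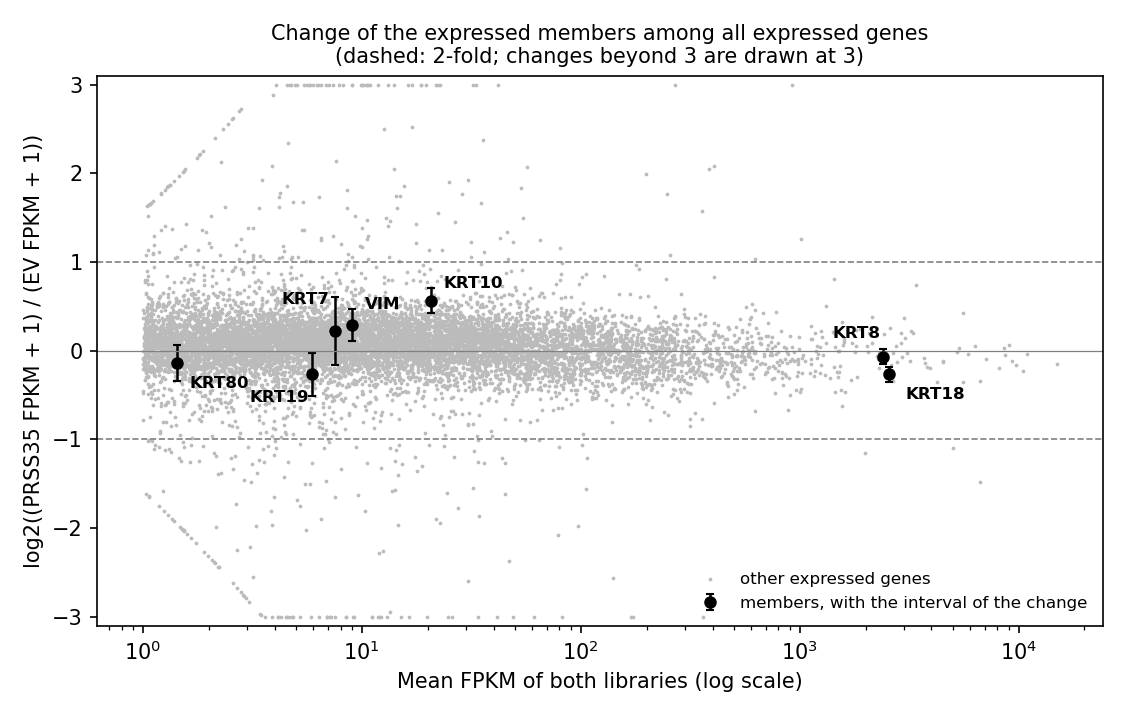
Log2 change against mean FPKM (log axis) for all expressed genes (grey) and for the 7 expressed members (black, bars: interval of the change). Every member lies between the dashed 2-fold lines, with KRT10 highest at 0.56 and KRT18 and KRT19 lowest.

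KRT8, the type II chain of simple epithelia, spans 53290971 to 53343650 on chromosome 12 (hg19, minus strand). Its FPKM was 2457 (interval 2354 to 2559) in EV and 2344 (interval 2246 to 2441) in PRSS35, and the intervals overlapped (log2 change -0.07, interval -0.15 to 0.02). KRT18, its type I partner, lies beside it on the plus strand, from 53342655 to 53346685, so that the first bases of both loci overlap. Its FPKM was 2781 (interval 2665 to 2897) in EV and 2315 (interval 2218 to 2412) in PRSS35, a log2 change of -0.26 (interval -0.35 to -0.18). KRT18 was thus lower with PRSS35 by more than the intervals, and 11.2% of expressed genes had a lower change than KRT18. This direction turned when each library was scaled to its FPKM total over all loci, named or not, where the log2 change of KRT18 was 0.45 with the PRSS35 interval above that in EV, while the median over expressed genes went from 0.06 to 0.68. With upper quartile scaling and with centring on the median change, the intervals of both KRT18 and KRT8 lay below. Among all gene names, KRT18 ranked 37 by FPKM in EV and 48 in PRSS35, and KRT8 ranked 48 and 47.

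The balance of the pair was read as the ratio of its FPKM values. The ratio of KRT8 to KRT18 FPKM was 0.883 (interval 0.831 to 0.935) in EV and 1.01 (interval 0.953 to 1.07) in PRSS35, and these intervals did not overlap. For single expressed genes, 24.7% had an interval above that in EV and 14.3% below. The share of other gene pairs whose ratio differed this far was not counted, so the difference does not mark this pair out. As a share of the summed FPKM of all 55 keratin genes in the files, type II chains made up 46.9% (interval 45.5 to 48.4) in EV and 50.3% (interval 48.8 to 51.7) in PRSS35. KRT8 and KRT18 together made up 99.0% of this sum in EV and 98.6% in PRSS35. The type II share therefore largely restates the ratio of KRT8 to KRT18 and is not a separate observation. The sum was 5291 (interval 5136 to 5446) in EV and 4723 (interval 4585 to 4861) in PRSS35, in FPKM as deposited. Unlike the sum, the ratio and the share do not depend on how a library is scaled. The KRT8 locus was assembled from the reads in EV and kept its annotated structure in PRSS35, whereas KRT18 was assembled in both, and the part of this in the ratio was not tested.

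Both transcripts resemble many processed copies elsewhere in the genome. GENCODE lists 51 pseudogenes of KRT8 and 68 of KRT18, and 39.0% of the 50-base stretches of the KRT8 transcript and 35.3% of those of KRT18 also occur in a keratin pseudogene. In addition, 23.9% of the KRT18 stretches occur in transcripts of KRT8, whose gene is on the opposite strand. How fragments in such stretches were shared out is not given in the sources used here, so the values of both genes are uncertain to that extent. The 8 keratin pseudogenes named in the files were listed at 0 in both libraries. Of 151 keratin pseudogenes in GENCODE, only KRT8P12 was overlapped by unnamed loci, at 0.964 and 1.47 FPKM in EV and 1.02 and 1.13 in PRSS35.

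KRT7 and KRT19 mark bile ducts and progenitor cells in liver. KRT7 (type II, chromosome 12) was at 6.92 FPKM (interval 5.44 to 8.41) in EV and 8.25 (interval 6.52 to 9.98) in PRSS35, a log2 change of 0.22 (interval -0.16 to 0.61). KRT19 (type I, chromosome 17) was at 6.55 FPKM (interval 5.70 to 7.40) in EV and 5.27 (interval 4.51 to 6.03) in PRSS35, a log2 change of -0.27 (interval -0.51 to -0.03). For both genes the FPKM intervals of the libraries overlapped, although the propagated interval of the KRT19 change did not reach 0. The ratio of KRT7 to KRT19 was 1.06 (interval 0.792 to 1.32) in EV and 1.57 (interval 1.17 to 1.96) in PRSS35, with overlapping intervals. Of the KRT7 stretches of 50 bases, 11.2% occur in its antisense gene KRT7-AS. KRT23, a rarer type I keratin, was at 0.296 FPKM (interval 0.145 to 0.447) in EV and 0.296 (interval 0.142 to 0.449) in PRSS35.

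KRT10, KRT15 and KRT17 are type I keratins best known from the epidermis, where KRT10 marks the layers above the base, KRT15 the basal layer and KRT17 appendages and wounded or activated cells. KRT10 spans 38974369 to 38978863 on chromosome 17 (minus strand). Its FPKM was 16.5 (interval 15.3 to 17.8) in EV and 24.9 (interval 23.2 to 26.7) in PRSS35, a linear ratio of 1.51 and a log2 change of 0.56 (interval 0.42 to 0.71). This was the largest change among the 7 expressed members, and 95.4% of expressed genes had a lower change. KRT10 was annotated in EV and assembled from the reads in PRSS35. Over the 1088 expressed genes with this status and above 0 in both libraries, the median log2 change was 0.15, and 36.7% had an interval in PRSS35 above that in EV. Its share of the KRT10 value was not tested. The transcript has no 50-base stretch in common with a keratin pseudogene, and 0.669% of its stretches occur in KRT10-AS1. The usual partner of KRT10 in epidermis, KRT1, was listed at 0 in both libraries.

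KRT15 has a value only within a locus that it shares with the microRNA gene MIR6510. The locus was at 0.770 FPKM (interval 0 to 2.04) in EV and 0.700 (interval 0 to 2.17) in PRSS35. As both intervals reach 0, the presence of KRT15 is not resolved. KRT17 was at 0.221 FPKM (interval 0.0735 to 0.368) in EV and was listed at 0 in PRSS35. Its fold is not given, and 13.1% of the KRT17 stretches occur in keratin pseudogenes.

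KRT80, a type II keratin found in many epithelia, was at 1.55 FPKM (interval 1.28 to 1.82) in EV and 1.32 (interval 1.09 to 1.54) in PRSS35, a log2 change of -0.14 (interval -0.34 to 0.07) with overlapping intervals. Like KRT8 it was assembled in EV only. Over the 1017 expressed genes of this kind, the median log2 change was 0.03 and 18.8% had an interval in PRSS35 below that in EV.

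VIM spans 17270258 to 17279592 on chromosome 10 (plus strand) and kept its annotation in both libraries. Its FPKM was 8.05 (interval 7.23 to 8.87) in EV and 10.0 (interval 9.11 to 10.98) in PRSS35, a log2 change of 0.29 (interval 0.11 to 0.47). VIM was higher with PRSS35 by more than the intervals, but 82.9% of expressed genes had a lower change, and the intervals overlapped once the FPKM was centred on the median change of all expressed genes. VIM was low beside the simple keratins in either library, with KRT8 at 305 times its FPKM in EV and 233 times in PRSS35. Of the VIM stretches of 50 bases, 28.1% occur in its antisense gene VIM-AS1, which was listed at 0 in both libraries.

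Most of the other keratin genes were listed at 0. Of the 46 keratin genes outside the list, 33 were listed at 0 in both libraries, 11 were above 0 in at least 1 library with a mean under 1 FPKM, and 2 had a mean of at least 1. These were KRT81, a type II hair keratin, at 17.8 FPKM (interval 16.2 to 19.5) in EV and 20.3 (interval 18.5 to 22.1) in PRSS35, and KRT20, an intestinal type I keratin, at 1.04 (interval 0.744 to 1.34) and 1.43 (interval 1.08 to 1.78). For both genes the intervals overlapped. On chromosome 12, KRT80, KRT7, KRT86 and KRT81 at one end and KRT8 and KRT18 at the other were above 0.5 FPKM in both libraries, and the highest value among the other 21 genes was 0.0597.

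**Figure D3:**
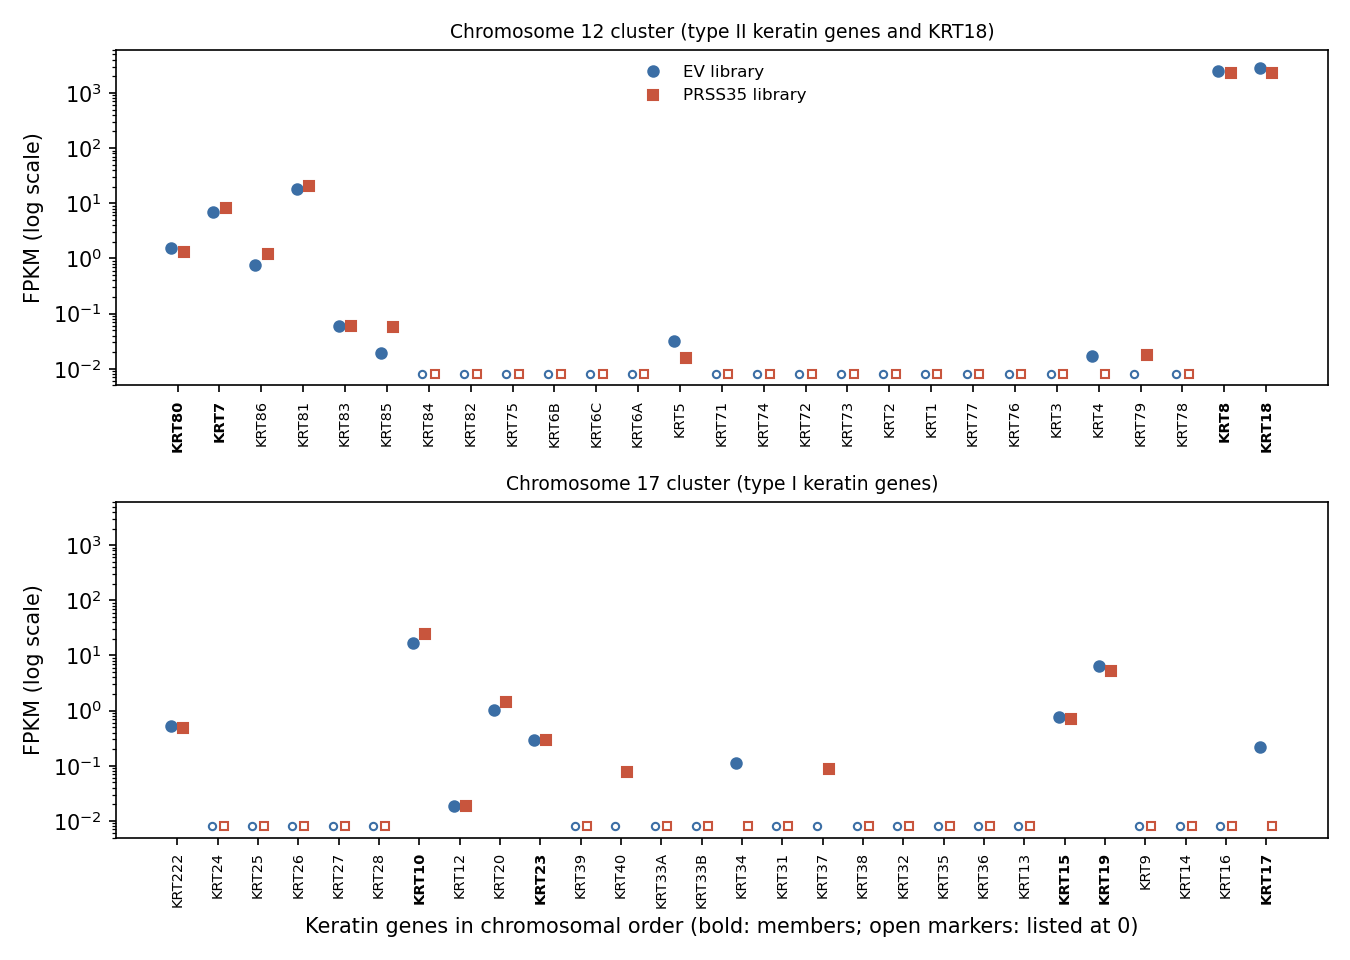
FPKM (log axis) of the keratin genes in chromosomal order in the EV (circles) and PRSS35 (squares) libraries, with members in bold and open markers for genes listed at 0. KRT8 and KRT18 stand at one end of the chromosome 12 cluster, KRT7 and KRT81 near the other, and KRT10 and KRT19 are the highest genes of the chromosome 17 cluster.

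Keratins and vimentin work together with other filament proteins and with the linkers that tie filaments to desmosomes. The counts of each list stand against 24.7% of all expressed genes with an interval above that in EV, 14.3% below, and a median log2 change of 0.06. Of 15 other intermediate filament genes, 7 were expressed, with 5 intervals above and 0 below those in EV and a median log2 change of 0.18. The lamin gene LMNA was at 242.9 FPKM in EV and 270.1 in PRSS35, and the neuronal filament gene INA at 18.6 and 21.1. LMNB2 passed 2-fold, at 79.3 FPKM in EV and 319.3 in PRSS35, but its locus was joined with that of TIMM13 in PRSS35, so this value is not that of LMNB2 alone. Of 16 linkers and desmosome genes, 10 were expressed, with 1 interval above, 2 below and 7 overlapping, and a median of 0.08. Among the 7 is PKP2, whose EV interval ran from 0 to 41981 FPKM, so that it could not be called in either direction. The interval above was that of MACF1, whose locus was joined with a neighbour in PRSS35 only. Plakoglobin (JUP) was at 271.9 FPKM (interval 262.8 to 281.0) in EV and 250.3 (interval 241.7 to 259.0) in PRSS35, and FAM83H, which helps to organise keratin filaments, at 36.5 and 35.9, within a locus joined with a neighbour in both libraries. Plectin (PLEC), at 323.4 FPKM in EV and 14.8 in PRSS35, passed 2-fold as well, but it was joined with PUF60 in EV only. Leaving out genes joined in 1 library only, a step chosen after the data were seen, 0 of 6 other filament genes and 0 of 8 linkers passed 2-fold, and their medians were 0.18 and 0.08.

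Epithelial and mesenchymal genes beyond VIM were also read. Of 15 listed, 7 were expressed, 3 with an interval above that in EV (24.7% of all expressed genes) and 4 overlapping, and the median log2 change was 0.18 (0.06 over all expressed genes). Of the 3 with an interval above, CDH1 and EPCAM are epithelial genes and FN1 is a mesenchymal one. E-cadherin (CDH1) was at 1.29 FPKM (interval 1.10 to 1.48) in EV and 1.77 (interval 1.54 to 1.99) in PRSS35, EPCAM at 44.9 (interval 43.0 to 46.9) and 51.0 (interval 48.9 to 53.1), and fibronectin (FN1) at 116.8 (interval 114.3 to 119.4) and 125.9 (interval 122.8 to 128.9). ESRP2, an epithelial splicing regulator, was at 14.2 and 15.7 with overlapping intervals. N-cadherin (CDH2), SNAI2 and ESRP1 were listed at 0 in both libraries.

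Markers of other cell types were read beside the members. Of 8 bile duct and progenitor markers, 5 were expressed, 3 with an interval above that in EV (24.7% of all expressed genes) and 2 overlapping. Among them were CD24 at 158.5 FPKM in EV and 195.6 in PRSS35, and EPCAM, whereas CFTR was listed at 0 in both. Of 8 fibroblast and stellate markers, PDGFRB alone had a mean of at least 1, at 1.02 and 1.27, COL3A1, LUM, DCN and ACTA2 were listed at 0 in both libraries, and the list summed to 2.23 FPKM in EV and 2.44 in PRSS35. Of 8 keratinocyte markers, none had a mean of at least 1, KRT14, IVL, SPRR1A, SPRR1B and S100A7 were listed at 0 in both, and the list summed to 0.322 and 0.119. For the hepatocyte markers, 6 of the 8 expressed genes had an interval above that in EV and 1, APOA1, below, where 24.7% and 14.3% of all expressed genes did so. Their median log2 change was 0.25, and that of all expressed genes was 0.06.

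**Figure D4:**
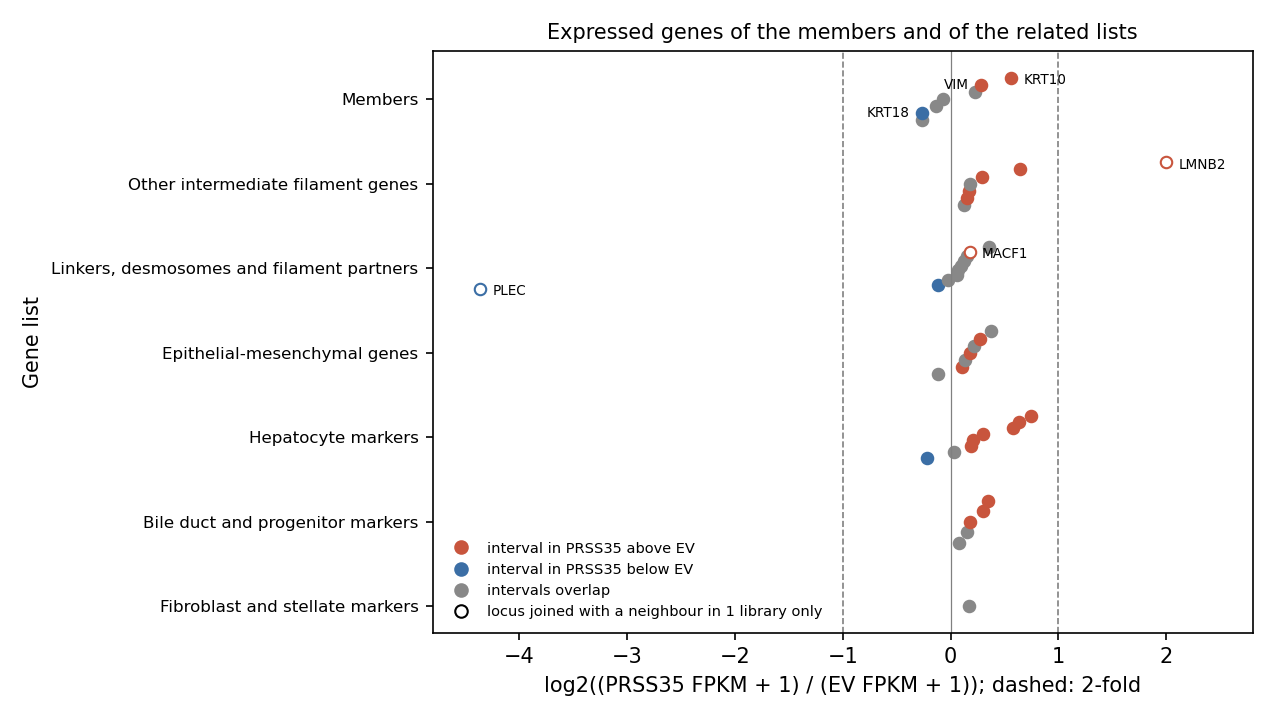
Log2 change of the 7 expressed members and of the expressed genes of the related lists, coloured by whether the interval in PRSS35 lies above, below or over that in EV. Open markers are loci joined with a neighbouring gene in 1 library only, and the genes beyond 2-fold, LMNB2 and PLEC, are both of this kind.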

How the data were processed

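The authors aligned reads to hg19 with TopHat2 2.1.0, ran Cufflinks (the submitters' processing notes name Cuffdiff 2.2.1) and deposited for each library the FPKM of every locus with its lower and upper bound. The version of the annotation and the options are not given in the sources used here. Assembly was run per library, so a locus is either annotated or assembled.

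Loci were matched by gene name, without contigs outside the assembled chromosomes, and FPKM was summed over loci of the same name. A locus with joined names gave its value to each listed gene it holds. A gene was called expressed where its FPKM averaged 1 or more over both libraries. Starts are printed 1-based. No test was run, since there is 1 library per condition. The interval of a change is 2 standard errors on either side, with the standard error taken as the distance from FPKM to its upper bound divided by 2. The code for the calls was run on simulated data. The planted changes there were larger than the threshold and the noise held no variation between cultures. That run therefore lends no support to the calls in these data. The members and lists were chosen with earlier results of these data known. Beyond the members, the rule for naming took keratins with a mean of at least 1 and, of each list, the genes beyond 2-fold, the 3 most abundant and those listed at 0 in both libraries. ALB, FGB, CDH1, KRT1, SNAI1, TWIST2, OVOL2, PKP2 and MACF1 lie outside this rule and were chosen with their values known. A planned count of protein features was replaced by one of codons, since no protein table was used here. Alternatives were other pseudocounts, scalings, filters, thresholds and the highest locus per name. Python 3.11.15, numpy 2.4.6, pandas 2.3.3 and matplotlib 3.10.9 were used. A few items are not reported here.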

Additional observations from a re-analysis of the deposited data

How the results depend on the processing

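The counts of the members were as given with other pseudocounts, FPKM divided by its sum over named loci and the highest locus per name. They were also as given with a 1.5-fold threshold or a mean of at least 5 FPKM. At 1.5-fold, however, KRT10 stayed under the threshold only through the pseudocount of 1, since its linear ratio was 1.51. KRT10 had the largest log2 change of the 7 expressed members under each scaling and pseudocount run. Scaling each library to its total over all loci, named or not, moved the results the most, and the median change over expressed genes went from 0.06 to 0.68 with it. The members then had a median of 0.64, 1 member (KRT10) was higher by 2-fold, 5 intervals lay above EV and 0 below, and KRT18 reversed to 0.45, which is under the median gene. With upper quartile scaling and with centring on the median change, 1 interval (KRT10) lay above and 2 (KRT8 and KRT18) below, so that the VIM call was lost and KRT8 gained one. Without the filter, 2 intervals lay below, the second being KRT17, listed at 0 in PRSS35. Among the 4 members with the same assembly status in both libraries, a restriction chosen after the data were seen, 1 interval (VIM) lay above and 1 (KRT18) below. Of 70 recomputed values of single members, 61 stayed within the interval of the change, 7 of the other 9 belong to the sum over all loci, and the remaining 2 to KRT17 with other pseudocounts. No paired analysis was possible because EV and PRSS35 were each sequenced from a single library.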

Other observations

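A hair keratin was the third most abundant keratin transcript in EV. KRT81 was above KRT10 there, at 17.8 against 16.5 FPKM, with overlapping intervals, and below it in PRSS35, at 20.3 against 24.9. Its neighbour KRT86, with a mean just under 1 FPKM and singled out after its values were seen, was at 0.771 (interval 0.537 to 1.00) in EV and 1.21 (interval 0.913 to 1.503) in PRSS35. The transcripts have 721 stretches of 50 bases in common, 38.4% of those of KRT81 and 32.8% of those of KRT86, and how fragments in them were assigned is not given in the sources used here. INA, a filament gene known from neurons, had 18.6 FPKM (interval 17.7 to 19.5) in EV and 21.1 (interval 20.1 to 22.0) in PRSS35, more than KRT7, KRT19 or VIM in either library, and kept its annotation in both.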
